A study of Homo sapiens with 6 samples.

Results

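F-box proteins are the substrate receptors of SCF ubiquitin ligases. An SCF complex is built on the cullin CUL1, which holds the RING protein RBX1 at its far end and the adaptor SKP1 at the near end. SKP1 binds the F-box motif of an exchangeable receptor, and the receptor picks the protein that is to be ubiquitylated and usually degraded. Receptors are sorted by the fold that binds the substrate into FBXW proteins with WD40 repeats, FBXL proteins with leucine-rich repeats, and FBXO proteins with other domains. SKP2 belongs to the leucine-rich class and CCNF, the cyclin F gene, to the class with other domains. In lymphoma cells the family is known for receptors of cell-cycle inhibitors, of MYC and cyclin E, and of the germinal-centre repressor BCL6.

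RNA for this gene family was examined in RL cells, a line grown from a human B-cell lymphoma. There were 3 arrays of cells given LY317615 and 3 arrays of untreated cells, with 48 h in all sample titles. LY317615 is enzastaurin, a drug made to block protein kinase C beta; the labels give its dose as 2.5 mM, a unit that could not be checked here, and name no vehicle for the untreated cells. Each Affymetrix Gene 1.0 ST array reads a transcript through several probes, together a probe set, and values are log2 intensities. Members were the genes whose probe set carries 1 gene symbol that starts with FBXO, FBXL or FBXW and a number, together with SKP1, SKP2, CUL1 and CCNF. FBXO32, 3 pseudogenes and the antisense RNA FBXL19-AS1 were left out. This gave 59 genes of 18417 tested, read by 61 probe sets: 2 scaffold genes, 9 of the WD40 class, 15 of the leucine-rich class and 33 with other domains. FBXO10, FBXL6 and FBXW10 are read here only together with another gene and have no value of their own.

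The arrays have 33297 probe sets, with a median intensity of 60.01 to 61.45 on the LY317615 arrays and 56.75 to 58.20 on the untreated arrays. LY317615 replicate 3 stood apart from the other arrays: its array weight was 0.376, against 1.04 to 1.51 for the other 5, and its score on principal component 2 was 15.8, where the other LY317615 arrays had -6.29 and -13.7. Of the B-cell markers, 5 were measured, and their summed intensity was 6651 to 7325 on LY317615 arrays and 9579 to 10070 on untreated arrays. The germinal-centre markers moved apart, MME with a change of 2.16 ± 0.09 (SE, adjusted p = 8.36e-06) and BCL6 with -1.23 ± 0.08. Summed markers of T cells (6 genes) were at 198 to 228 on LY317615 arrays and 170 to 179 on untreated arrays, those of myeloid cells (4 genes) at 137 to 158 on LY317615 arrays and 107 to 119 on untreated arrays, those of fibroblasts (3 genes) at 175 to 212 on LY317615 arrays and 149 to 171 on untreated arrays, and those of epithelial cells (4 genes) at 206 to 250 on LY317615 arrays and 236 to 251 on untreated arrays. Of all genes, the dimmest of 3 equal bins by untreated intensity had a median change of 0.10, with 4412 of 6139 rising. This cut tends to place genes that rose in a dimmer bin. The T-cell and myeloid markers had median untreated log2 levels of 4.88 and 4.80, in that bin, and median changes of 0.27 and 0.34. The fibroblast markers, at 5.44 in the middle bin (median change 0.10), had a median change of 0.22. Whether these sums reflect that shift of dim genes was not tested, nor was the part of these markers in the results. No detection calls were used, so none of these markers can be called absent. In bulk RNA, fewer cells of a kind and less RNA per cell cannot be told apart, and with no label on whether replicates were separate cultures, the p-values reflect only how far these arrays differ. The number of arrays limits the precision.

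Cells that received LY317615 had 1.86-fold more RNA for SKP2, the receptor best known for degrading the CDK inhibitor p27, and 2.97-fold less RNA for FBXL20, a receptor known for the turnover of the synaptic protein RIM1 in mice. These were the largest rise and the largest fall among the 59 members. The other changes were at most 0.63 in size on the log2 scale. In all, 3 members rose and 16 fell at an adjusted p of 0.05 (limma, Benjamini-Hochberg over all genes), and 40 did not pass. Over all genes 14.2% rose and 21.4% fell, 35.7% together, while 5.08% of members rose and 27.1% fell, 32.2% together. With both directions together, the members' share of calls was close to that of the array as a whole, but a smaller share of members rose. Within each bin of intensity given below, a smaller share of members passed than of all genes. The groups did not overlap in 30 of 59 members (50.8%), against 49.8% of all genes.

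The median log2 fold change of the members was -0.09, against 0.02 over all genes. Setting all array medians equal put the members' median at -0.14, and cyclic loess, a scaling that takes out intensity-dependent trends, put it at -0.019. Lower genes made up 84.2% of the called members in the main analysis, 88.9% when array medians were set equal (2 higher, 16 lower), and 56.2% under cyclic loess (7 higher, 9 lower). For all genes the same share was 60.1%, 71.4% and 53.5%. Another scaling turned the sign of some members, all of them uncalled: CUL1, FBXL4, FBXL13, FBXL14, FBXO6, FBXO7, FBXO16, FBXO24, FBXO44, FBXO45, FBXO47, FBXW7, FBXW8 and FBXW12. Without LY317615 replicate 3, 4 members were higher and 13 lower. The calls varied with intensity, read in 3 equal bins cut on the mean of the untreated arrays. The same untreated values enter the change. This cut therefore tends to place genes that fell in a brighter bin and genes that rose in a dimmer one. That limit holds wherever the brightest bin is cited below. In the brightest of 3 equal bins of genes, 15 of 29 members passed (51.7%), 2 higher (6.90%) and 13 lower (44.8%), against 56.1% of all genes in that bin, 8.55% higher and 47.6% lower. In the middle bin 3 of 20 members passed (15.0%, against 36.7% of all genes), and in the dimmest bin 1 of 10 (10.0%, against 14.1%). The median SD within a group was 0.09 over the members and 0.11 over all genes.

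**Figure D1:**
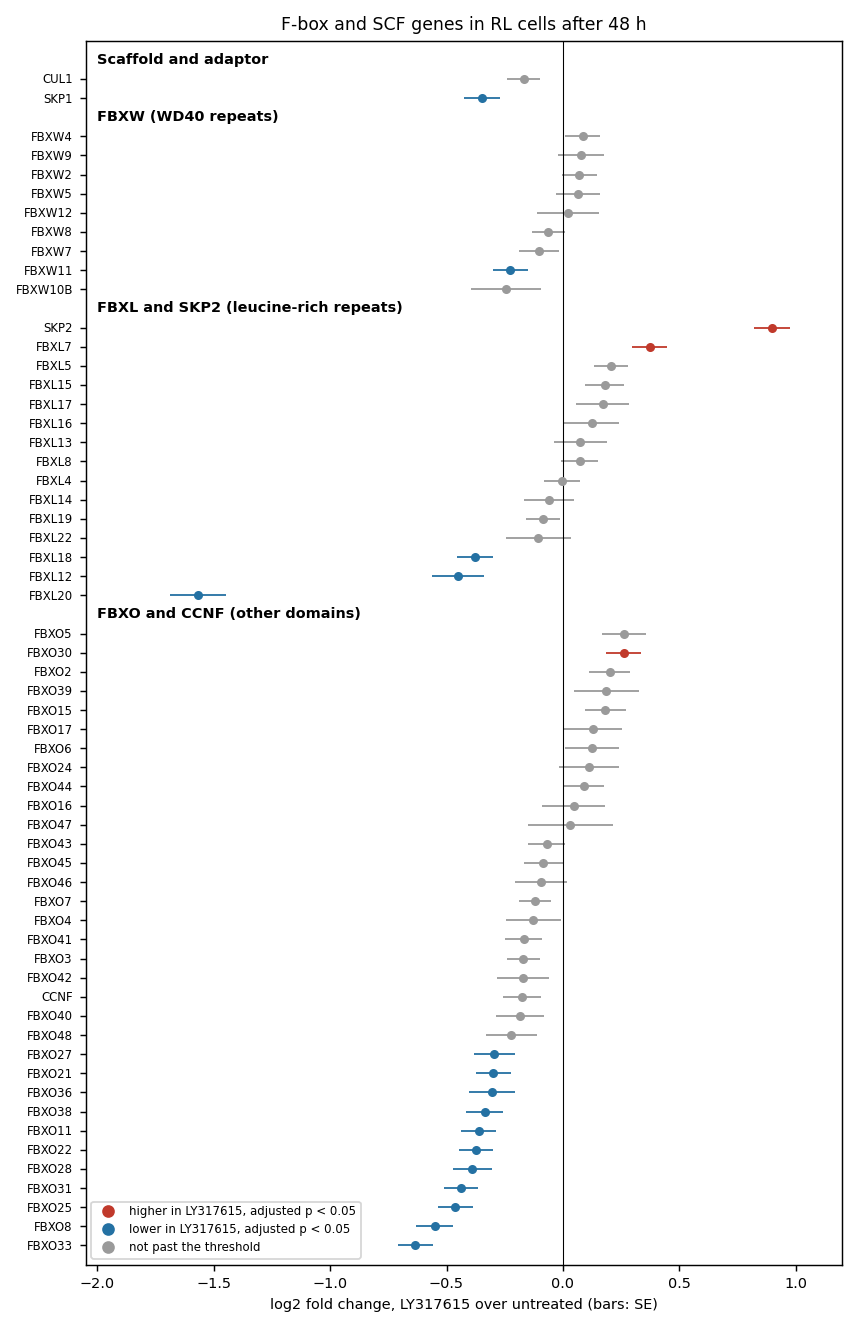
Log2 fold change of LY317615 over untreated cells for each of the 59 F-box and SCF genes, sorted within the scaffold, WD40, leucine-rich and other classes; bars are standard errors, red and blue mark genes past an adjusted p of 0.05. SKP2 at 0.90 and FBXL20 at -1.57 lie farthest from 0, and most blue points are in the class with other domains.

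Promoter sequences are shown for the receptors with the smallest adjusted p that RefSeq's promoter table (GRCh38.p14) holds, since these carry the clearest changes. They give the 250 bases before the annotated start, 5′ to 3′ on the gene's strand. Capitals mark matches, on either strand, to an E-box (CACGTG), an E2F motif (TTTCCCGC), an ETS motif (CCGGAAGT), an NF-Y motif (CCAAT), a CRE (TGACGTCA) or a FOXO motif (TGTTTAC). SKP2 (chr5:36151861-36152110, plus strand) has no match, the upstream of the 2 FBXL20 starts (chr17:39402557-39402806, minus strand) has 1 CRE and 2 NF-Y matches, and FBXO8 (chr4:174283668-174283917, minus strand) has 1 FOXO and 1 ETS match. The downstream FBXL20 start (chr17:39401627-39401876, minus strand), not printed, has 1 NF-Y match and no CRE.
SKP2: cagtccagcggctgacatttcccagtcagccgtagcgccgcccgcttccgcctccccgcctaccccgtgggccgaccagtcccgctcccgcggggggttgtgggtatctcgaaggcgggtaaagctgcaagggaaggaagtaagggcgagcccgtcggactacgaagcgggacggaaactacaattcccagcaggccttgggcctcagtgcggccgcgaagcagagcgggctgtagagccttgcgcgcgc
FBXL20: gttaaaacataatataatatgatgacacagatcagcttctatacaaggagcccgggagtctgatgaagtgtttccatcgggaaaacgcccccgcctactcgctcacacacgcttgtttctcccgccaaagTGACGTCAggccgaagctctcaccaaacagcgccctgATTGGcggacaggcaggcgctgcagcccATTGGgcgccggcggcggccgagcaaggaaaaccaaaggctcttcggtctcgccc
FBXO8: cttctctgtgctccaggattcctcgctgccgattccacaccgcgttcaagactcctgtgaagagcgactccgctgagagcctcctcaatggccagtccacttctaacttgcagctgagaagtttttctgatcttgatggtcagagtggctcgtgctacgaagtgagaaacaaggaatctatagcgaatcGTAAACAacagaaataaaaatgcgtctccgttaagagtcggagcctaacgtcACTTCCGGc

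Of the 59 members, 48 matched the promoter table, with 70 promoters, since a gene can have several starts. The E-box was in 5 of these 70 (7.14%) and in 6.34% of all 35116 promoters of that length. NF-Y matches were in 18 (25.7%, against 32.01%), ETS matches in 4 (5.71%, against 3.42%), CRE matches in 1 (1.43%, against 1.65%), FOXO matches in 1 (1.43%, against 2.98%) and E2F matches in 0 (against 1.39%). The motifs do not overlap each other in the sequences shown. A match is a description of these letters and not a binding site.

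Of the 2 scaffold genes of the SCF complex, SKP1 fell and CUL1 did not pass. SKP1, the adaptor that binds the F-box motif, had log2 intensities of 9.62, 9.77 and 9.65 on LY317615 arrays, against 10.01, 9.99 and 10.07 on untreated arrays. All 3 LY317615 arrays lay below all 3 untreated arrays, a change of -0.35 ± 0.08 (SE, adjusted p = 0.00767). That value comes from the brighter of its 2 probe sets; the other read 7.73, 7.91 and 7.74 on LY317615 arrays and 7.70, 8.07 and 8.03 on untreated arrays, with overlapping groups and a difference of -0.14 (adjusted p = 0.43 in the limma fit of all probe sets). With the mean of both probe sets the change was -0.24 (adjusted p = 0.0558), and after cyclic loess it was -0.13 (adjusted p = 0.226). SKP1 has pseudogenes in RefSeq that may share its probes. CUL1, the cullin itself, had 10.58, 10.55 and 10.50 on LY317615 arrays and 10.66, 10.75 and 10.74 on untreated arrays. Its groups did not overlap either, and its difference of -0.17 ± 0.07 (SE, adjusted p = 0.0983) did not pass. The difference was 0.05 after cyclic loess, and it passed when the variance prior of limma followed intensity (adjusted p = 0.0143).

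In the WD40 class, 1 of 9 receptors passed (11.1%, against 35.7% of all genes). FBXW11, one of the β-TrCP receptors of IκB and β-catenin, read 9.33, 9.31 and 9.17 on LY317615 arrays and 9.45, 9.51 and 9.51 on untreated arrays. The groups did not overlap, and the change was -0.23 ± 0.08 (SE, adjusted p = 0.0482). Leaving out any single array ended that call, and after cyclic loess the change was -0.01 (adjusted p = 0.935). Its close relative BTRC, which the naming rule does not take in, had 7.98, 7.79 and 7.77 on LY317615 arrays and 7.57, 7.75 and 7.73 on untreated arrays, a difference of 0.17 ± 0.09 (SE, adjusted p = 0.181). FBXW7, the receptor of cyclin E, MYC, NOTCH1 and MCL1 and a tumour suppressor, read 7.82, 7.85 and 7.61 on LY317615 arrays and 7.93, 7.81 and 7.84 on untreated arrays. These groups overlapped, with LY317615 replicate 3 the lowest of all arrays, and the difference was -0.10 ± 0.09 (SE, adjusted p = 0.384).

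The other 7 genes of the class did not pass. FBXW2, FBXW4, FBXW5 (a receptor of the centriole protein SASS6) and FBXW9 differed by 0.07, 0.08, 0.06 and 0.08 on the log2 scale, and FBXW8, which works with the cullin CUL7, by -0.06. FBXW12 differed by 0.02 and FBXW10B by -0.24. Both of these were among the dimmest 30% of genes, FBXW10B being at 2.06 ± 0.003 on LY317615 arrays and 2.30 ± 0.35 on untreated arrays (SD, n = 3). FBXW10B passed only when untreated replicate 1 was left out. After cyclic loess FBXW2 and FBXW4 were called higher, at 0.29 (adjusted p = 0.00982) and 0.25 (adjusted p = 0.0252). The median of the class was 0.02.

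The leucine-rich class held both extremes, with 2 of 15 genes higher and 3 lower (33.3% together, against 35.7% of all genes). SKP2 (probe set 8104912) read 8.86, 8.80 and 8.74 on LY317615 arrays, against 7.98, 7.85 and 7.88 on untreated arrays. Every LY317615 array lay above every untreated array, and the change was 0.90 ± 0.08 (SE, adjusted p = 8.36e-05). CKS1B, the small cofactor that SKP2 needs to bind p27, was lower, with 10.33, 10.18 and 10.02 on LY317615 arrays and 10.87, 10.94 and 10.89 on untreated arrays, a change of -0.73 ± 0.09 (SE, adjusted p = 0.000494). Its probe set (8112327) is numbered among those of members on chromosome 5. Whether that probe set reads CKS1B or a related sequence was not tested. RNA of known SKP2 substrates did not follow 1 pattern: CDKN1B, the p27 gene, differed by 0.04 ± 0.08 (SE, adjusted p = 0.732), CDKN1C, the p57 gene, rose by 0.50 ± 0.09, and the pocket protein gene RBL2 fell, with a change of -0.55 ± 0.07. CDT1, FOXO1 and CDKN1A differed by 0.08, -0.04 and -0.20 and did not pass. The arrays measure RNA, so the amounts of these proteins are not known from them.

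**Figure D2:**
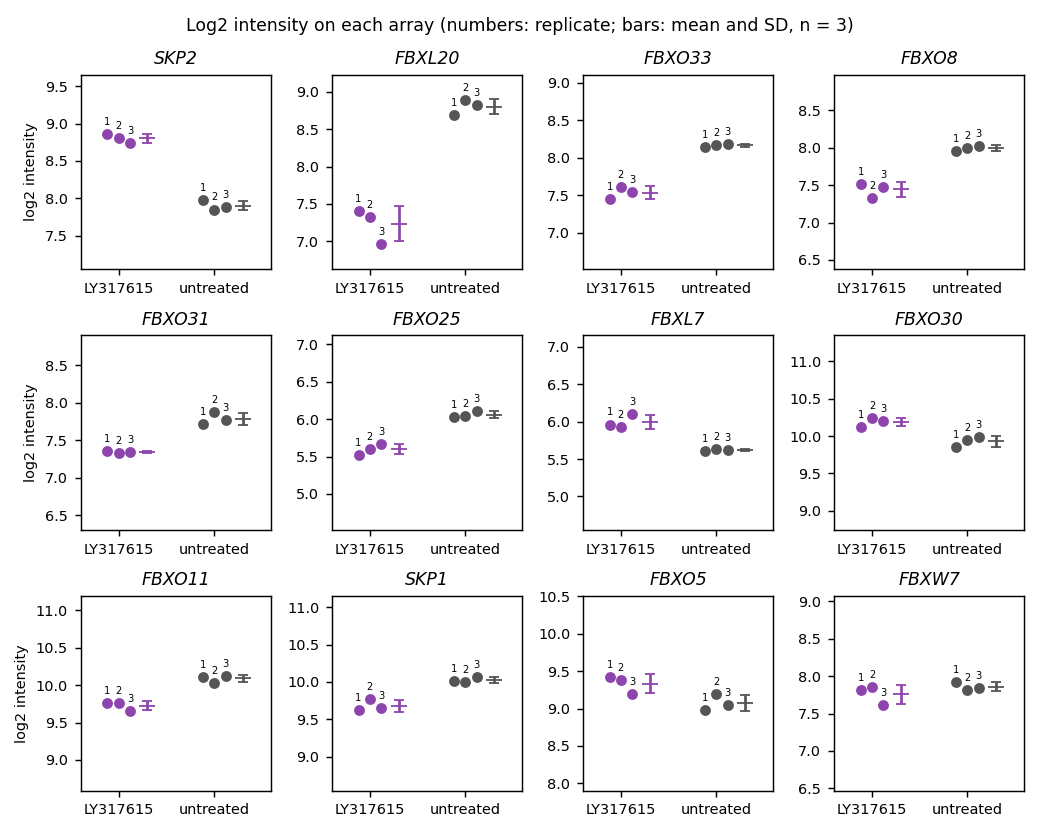
Log2 intensity of 12 genes on each array, with LY317615 on the left and untreated on the right of each panel; numbers give the replicate, bars the mean and SD of 3 arrays, and all panels span the same log2 range. SKP2 is higher on all LY317615 arrays and FBXL20 lower, with LY317615 replicate 3 at 6.97, while the groups of FBXW7 overlap.

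FBXL20 (probe set 8014825) read 7.40, 7.33 and 6.97 on LY317615 arrays, against 8.69, 8.89 and 8.82 on untreated arrays. The groups lay far apart, and the change was -1.57 ± 0.12 (SE, adjusted p = 5.33e-05). LY317615 replicate 3 was the lowest, and without it the change was -1.44 (adjusted p = 0.000209). FBXL12, which has been linked to turnover of p57, read 7.45, 7.76 and 7.32 on LY317615 arrays and 7.89, 7.99 and 8.005 on untreated arrays. The LY317615 arrays spread more widely here than the untreated ones, with replicate 2 nearest to the untreated arrays, and the change was -0.45 ± 0.11 (SE, adjusted p = 0.0134).

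FBXL7 and FBXL18 are a known pair, since FBXL18 can target the FBXL7 protein for degradation. FBXL7, itself a receptor of the mitotic kinase Aurora A, read 5.96, 5.93 and 6.10 on LY317615 arrays and 5.61, 5.64 and 5.62 on untreated arrays. FBXL18 read 7.31, 7.44 and 7.30 on LY317615 arrays and 7.76, 7.67 and 7.76 on untreated arrays. Neither pair of groups overlapped: FBXL7 rose by 0.37 ± 0.08 (SE, adjusted p = 0.00562) and FBXL18 fell, with a change of -0.38 ± 0.08 (SE, adjusted p = 0.00546). Both kept their call after cyclic loess, at 0.24 and -0.29.

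FBXL5, an iron-sensing receptor that targets the iron regulatory protein IRP2, read 8.61, 8.75 and 8.72 on LY317615 arrays and 8.48, 8.51 and 8.48 on untreated arrays. Its groups did not overlap, but its difference of 0.21 ± 0.07 (SE, adjusted p = 0.055) missed the threshold; after cyclic loess it was 0.39 (adjusted p = 0.00612). FBXL15, a receptor of the ubiquitin ligase SMURF1, and FBXL17, which removes faulty BTB-domain dimers, differed by 0.18 and 0.17. FBXL4, a mitochondrial receptor that restrains mitophagy, differed by -0.0045, FBXL14, a receptor of the transcription factor SNAI1, by -0.06, and FBXL8, linked to cyclin D3, by 0.07. FBXL13, FBXL16, FBXL19 and FBXL22 lay between -0.11 and 0.12. None of these 10 genes passed. The median of the class was 0.07.

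Among the 33 members with other domains, 1 rose and 11 fell, together 36.4% and close to the 35.7% of all genes; after cyclic loess 2 rose and 6 fell. FBXO33, known as a receptor of the RNA-binding protein YB-1, read 7.44, 7.61 and 7.54 on LY317615 arrays and 8.14, 8.17 and 8.18 on untreated arrays, a change of -0.63 ± 0.08 (SE, adjusted p = 0.000391). FBXO8, which carries a Sec7-like domain and acts on the GTPase ARF6, read 7.52, 7.33 and 7.48 on LY317615 arrays and 7.95, 7.996 and 8.03 on untreated arrays, a change of -0.55 ± 0.08 (SE, adjusted p = 0.00103). In both genes the gap between the groups was wider than the spread within either. They kept their calls after cyclic loess, at -0.51 and -0.44.

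FBXO25 has been linked in lymphoma to the degradation of the mitochondrial protein HAX1 together with protein kinase C delta. It read 5.53, 5.60 and 5.67 on LY317615 arrays and 6.03, 6.04 and 6.11 on untreated arrays, a change of -0.46 ± 0.08 (SE, adjusted p = 0.00185), and the groups did not overlap. A further probe set annotated to FBXO25 and LINC01881 together read 7.31, 7.15 and 7.15 on LY317615 arrays and 8.59, 8.93 and 8.73 on untreated arrays, a change of -1.55 (adjusted p = 0.000652 in the limma fit of all probe sets), and which of the 2 transcripts it reads is not known. PRKCD, the protein kinase C delta gene, named after its value was seen, averaged 8.13 ± 0.14 on LY317615 arrays and 8.79 ± 0.08 on untreated arrays (SD, n = 3), and it changed by -0.66 ± 0.09 (SE, adjusted p = 0.000812).

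FBXO31, a receptor of cyclin D1, read 7.36, 7.33 and 7.35 on LY317615 arrays and 7.71, 7.87 and 7.77 on untreated arrays. Its LY317615 arrays lay close together and below all untreated arrays, and the change was -0.44 ± 0.07 (SE, adjusted p = 0.00237). FBXO22, a receptor of the histone demethylase KDM4A, read 8.76, 8.70 and 8.66 on LY317615 arrays and 9.12, 9.10 and 9.03 on untreated arrays, a change of -0.37 ± 0.07 (SE, adjusted p = 0.00457). FBXO28, which has been tied to MYC-driven transcription, read 9.73, 9.73 and 9.89 on LY317615 arrays and 10.06, 10.23 and 10.23 on untreated arrays, a change of -0.39 ± 0.08 (SE, adjusted p = 0.00737). The groups of all 3 genes stood apart. After cyclic loess FBXO31 kept its call at -0.35, while FBXO22 was at -0.17 (adjusted p = 0.0744) and FBXO28 at -0.17 (adjusted p = 0.199).

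FBXO11 is the receptor that targets BCL6 and is lost or mutated in some B-cell lymphomas. It read 9.76, 9.76 and 9.66 on LY317615 arrays and 10.11, 10.03 and 10.12 on untreated arrays. Its change was -0.36 ± 0.07 (SE, adjusted p = 0.0057), and -0.14 (adjusted p = 0.135) after cyclic loess. RNA of BCL6 itself was also lower, with 10.77, 10.67 and 10.82 on LY317615 arrays and 12.01, 12.02 and 11.91 on untreated arrays, a change of -1.23 ± 0.08 (SE, adjusted p = 2.28e-05). FBXO38, a receptor of the inhibitory receptor PD-1 in T cells, read 8.87, 8.95 and 8.76 on LY317615 arrays and 9.14, 9.21 and 9.23 on untreated arrays, a change of -0.34 ± 0.08 (SE, adjusted p = 0.011). FBXO21, a receptor of the transcriptional inhibitor EID1, read 8.76, 8.80 and 8.64 on LY317615 arrays and 9.04, 9.05 and 9.0003 on untreated arrays, a change of -0.30 ± 0.08 (SE, adjusted p = 0.0149). The groups did not overlap in FBXO38 or FBXO21, and both lost their call after cyclic loess, at -0.13 (adjusted p = 0.174) and -0.10 (adjusted p = 0.258). FBXO21 also lost its call without untreated replicate 2 (adjusted p = 0.0551).

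FBXO30, known from muscle wasting in mice, was the only gene of the class that rose. Its log2 intensities were 10.13, 10.24 and 10.21 on LY317615 arrays, against 9.85, 9.95 and 9.99 on untreated arrays, a change of 0.26 ± 0.08 (SE, adjusted p = 0.0273). The call was lost with array medians set equal (adjusted p = 0.0885), without LY317615 replicate 2 and without any 1 of the untreated replicates, and after cyclic loess the change was 0.48 (adjusted p = 0.0025). FBXO36 read 5.01, 4.82 and 4.90 on LY317615 arrays and 5.15, 5.40 and 5.10 on untreated arrays, a change of -0.31 ± 0.10 (SE, adjusted p = 0.0387). It lay among the dimmest 30% of genes, and its call was lost when the variance prior of limma followed intensity (adjusted p = 0.0562). The call was also lost without LY317615 replicate 2 (adjusted p = 0.101) or 3 (0.0813) and without untreated replicate 1 (0.0614) or 2 (0.137).

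FBXO27 belongs to a group of receptors that bind the sugar chains of glycoproteins. It read 5.80, 5.86 and 5.73 on LY317615 arrays and 6.06, 5.98 and 6.23 on untreated arrays, a change of -0.30 ± 0.09 (SE, adjusted p = 0.0293), and the call was lost without LY317615 replicate 1 (adjusted p = 0.0647) or 3 (0.072) and without untreated replicate 1 (0.0618) or 3 (0.111). The related FBXO2, FBXO6, FBXO17 and FBXO44 had differences above 0 (0.20, 0.12, 0.13 and 0.09) and did not pass, with the sign of FBXO6 and FBXO44 turned under another scaling. A further, dimmer probe set of FBXO17 differed by 0.36 (adjusted p = 0.073 in the limma fit of all probe sets).

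Of the members with direct roles in the cell-cycle machinery, FBXO5 and CCNF did not pass. FBXO5, or EMI1, inhibits the anaphase-promoting complex, and read 9.43, 9.38 and 9.19 on LY317615 arrays and 8.97, 9.19 and 9.05 on untreated arrays. LY317615 replicate 3 lay just above untreated replicate 2, and the difference was 0.26 ± 0.09 (SE, adjusted p = 0.0543). Without LY317615 replicate 3 it was 0.33 (adjusted p = 0.0257), and after cyclic loess 0.48 (adjusted p = 0.00264). CCNF, the cyclin F gene whose product targets the ribonucleotide reductase subunit RRM2 and the centriole protein CP110, read 7.60, 7.62 and 7.43 on LY317615 arrays and 7.69, 7.75 and 7.74 on untreated arrays, a difference of -0.18 ± 0.08 (SE, adjusted p = 0.118). FBXO43, the meiotic relative of FBXO5, and FBXO4, linked to cyclin D1, differed by -0.07 and -0.13.

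FBXO7, a Parkinson disease gene whose product binds the proteasome regulator PI31, read 9.79, 9.79 and 9.73 on LY317615 arrays and 9.90, 9.87 and 9.90 on untreated arrays. The groups did not overlap, and the difference was -0.12 ± 0.07 (SE, adjusted p = 0.209). FBXO3 and FBXO41 also kept their groups apart without passing, at -0.17 ± 0.07 and -0.17 ± 0.08 (SE). FBXO42, which binds p53, and FBXO45, a synaptic receptor, differed by -0.17 and -0.08, and FBXO46 and FBXO48 by -0.09 and -0.22. Among receptors known from other tissues, FBXO40 of muscle differed by -0.18, FBXO15, a marker of embryonic stem cells in mice, by 0.18, and FBXO16, FBXO24, FBXO39 and FBXO47 by 0.03 to 0.19. FBXO15, FBXO36, FBXO39, FBXO40, FBXO43 and FBXO47 were among the dimmest 30% of genes, as were FBXL13, FBXW10B and FBXW12. The median of the class with other domains was -0.17.

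**Figure D3:**
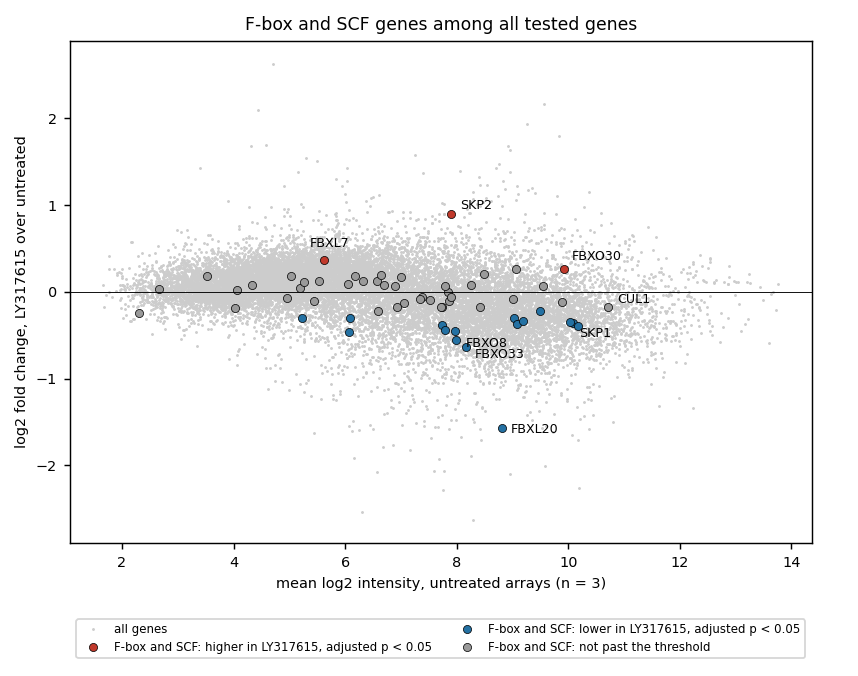
Log2 fold change of LY317615 over untreated cells against the mean log2 intensity of the 3 untreated arrays, for all genes (grey) and the 59 F-box and SCF genes (larger points). SKP2 and FBXL20 stand away from the other members. Of the 16 members that fell, 13 are in the brightest of 3 equal bins of genes (81.2%), as are 74.0% of all genes that fell. The bins are cut on the untreated mean, which also enters the change and tends to place genes that fell in a brighter bin.

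Other parts of the cullin ligase system were read from lists of genes with known roles. Of 29 measured genes for assembly of cullin ligases and for their activation by the ubiquitin-like protein NEDD8, 2 rose and 16 fell (62.1%, against 35.7% of all genes and 56.1% of those in the brightest bin), with a median of -0.24; without untreated replicate 2, 1 rose and 10 fell, and after cyclic loess 2 rose and 9 fell, with a median of -0.041. CUL4A, a cullin of DNA repair and replication control, read 9.05, 9.01 and 8.94 on LY317615 arrays and 10.10, 10.05 and 9.996 on untreated arrays, a change of -1.05 ± 0.07 (SE, adjusted p = 3.73e-05). Its X-linked relative CUL4B rose, with 8.50, 8.48 and 8.33 on LY317615 arrays and 8.10, 8.15 and 8.14 on untreated arrays, a change of 0.30 ± 0.08 (SE, adjusted p = 0.0147). The COP9 signalosome, which removes NEDD8 from cullins, had 7 of 9 genes lower and 0 higher by limma; 21.4% of all genes were lower, and 47.6% of those in the brightest bin. Without untreated replicate 2, 4 of the 9 were lower, and under cyclic loess 2 were. Its catalytic subunit gene COPS5 changed by -0.51 ± 0.08 (SE) and COPS3 by -0.44 ± 0.07. Of the DCUN1D genes, which help to attach NEDD8, 4 of 5 fell (80%, against 21.4% of all genes and 47.6% of those in the brightest bin). Changes were -0.74 ± 0.10 in DCUN1D2 and -0.47 ± 0.07 in DCUN1D5. Only 2 of the 5 DCUN1D genes were lower without LY317615 replicate 2, and likewise without untreated replicate 2 or 3. SENP8, a NEDD8 protease gene, changed by -0.53 ± 0.08. After cyclic loess the calls of COPS2, COPS4, COPS6, COPS7B, GPS1, DCUN1D1 and DCUN1D3 were lost, while COPS3, COPS5, DCUN1D2, DCUN1D5 and SENP8 kept theirs. RBX1, the RING protein of SCF, changed by -0.26 ± 0.07 (SE, adjusted p = 0.0254), a call lost after cyclic loess, without LY317615 replicate 2 and without any 1 of the untreated replicates.

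Of 7 measured partners that charge SCF with ubiquitin or support its assembly, 4 fell and 0 rose (57.1%, against 56.1% of all genes in the brightest bin), with a median of -0.36 and, after cyclic loess, 1 higher, 2 lower and a median of -0.13. Besides CKS1B these were SUGT1, a chaperone partner of SKP1, at -0.42 ± 0.07 (SE), the ubiquitin-conjugating enzyme gene CDC34 at -0.41 ± 0.10, and ARIH1, a ligase that works with cullins, at -0.36 ± 0.07. CDC34 and ARIH1 were not called after cyclic loess, nor CDC34 without untreated replicate 3. Of 6 measured F-box proteins under other symbols, 3 fell and 0 rose (50%, against 35.7% of all genes), with a median of -0.05: the histone demethylase genes KDM2A and KDM2B at -0.34 and -0.26, and LMO7 at -0.46. After cyclic loess 2 of these 6 were higher and 1 lower, and limma called 0 without untreated replicate 1. KDM2A was also lost without LY317615 replicate 2 or 3 or untreated replicate 2 or 3, KDM2B without any 1 array other than untreated replicate 2, and LMO7 without untreated replicate 2.

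Of 65 receptors of other cullins, 7 rose and 16 fell (35.4%), close to the 35.7% of all genes, with a median of -0.04; 5 rose and 10 fell without untreated replicate 2, and 10 rose and 10 fell after cyclic loess, with a median of 0.02. The largest changes in this list were falls of KLHL24 at -1.58 ± 0.08 (SE, adjusted p = 1.43e-05) and of CRBN, the CUL4 receptor that binds lenalidomide, at -1.24 ± 0.08 (SE, adjusted p = 2.28e-05). CRBN read 8.80, 8.73 and 8.69 on LY317615 arrays and 9.88, 10.003 and 10.04 on untreated arrays. KLHL18, DCAF13, KLHL11 and KBTBD8 changed by -0.81, -0.78, -0.64 and -0.64. Of the 13 DCAF genes 0 rose and 5 fell by limma (38.5% lower, against 21.4% of all genes and 47.6% of those in the brightest bin). After cyclic loess 4 DCAF genes rose and 4 fell. Of 45 KLHL and KBTBD genes 6 rose and 8 fell (13.3% and 17.8%, against 14.2% and 21.4% of all genes). Without untreated replicate 2 or 3, and under cyclic loess, 5 rose and 5 fell.

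Of 39 measured genes for known F-box substrates, 6 rose and 10 fell (41.0%, against 35.7% of all genes and 56.1% of those in the brightest bin), with a median of -0.07; 3 rose without LY317615 replicate 1 or without untreated replicate 2, and after cyclic loess 11 rose and 9 fell, with a median of 0.03. Among FBXW7 substrates, MYC and JUN fell, with changes of -1.32 ± 0.09 and -0.66 ± 0.10 (SE), and MCL1 rose by 0.26 ± 0.07, a call lost with array medians set equal, without LY317615 replicate 1 or 2 and without untreated replicate 2 or 3. CCNE1, CCNE2 and NOTCH1 differed by 0.03, 0.18 and -0.14 without passing. Among β-TrCP substrates, the clock gene PER2, the mitotic kinase gene WEE1 and the translation inhibitor gene PDCD4 changed by -0.97 ± 0.08, -0.72 ± 0.08 and -0.58 ± 0.07, while NFKBIA, the IκBα gene, and NFKB1 rose by 0.44 ± 0.08 and 0.36 ± 0.08; CTNNB1, the β-catenin gene, differed by 0.05. Substrates of cyclin F (RRM2, CCP110, CDC6, SLBP and E2F1) lay between -0.19 and 0.17, and none passed. BNIP3L, a mitophagy receptor that FBXL4 targets, changed by -1.25 ± 0.12 (SE, adjusted p = 0.000137). CCND1, the cyclin D1 gene, rose by 0.34 ± 0.12 (SE, adjusted p = 0.0478), a call lost with array medians set equal, after cyclic loess, with array weights and without any 1 array other than LY317615 replicate 2. Called genes of the list not described above were BCL2, which rose by 0.30 ± 0.08 (SE), and CDC25A and BNIP3, with changes of -0.46 ± 0.13 and -0.27 ± 0.08. Their calls were lost without untreated replicate 1 or 2. KDM4A, CCND3 and SNAI1 differed by -0.19, -0.27 and -0.07 without passing.

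**Figure D4:**
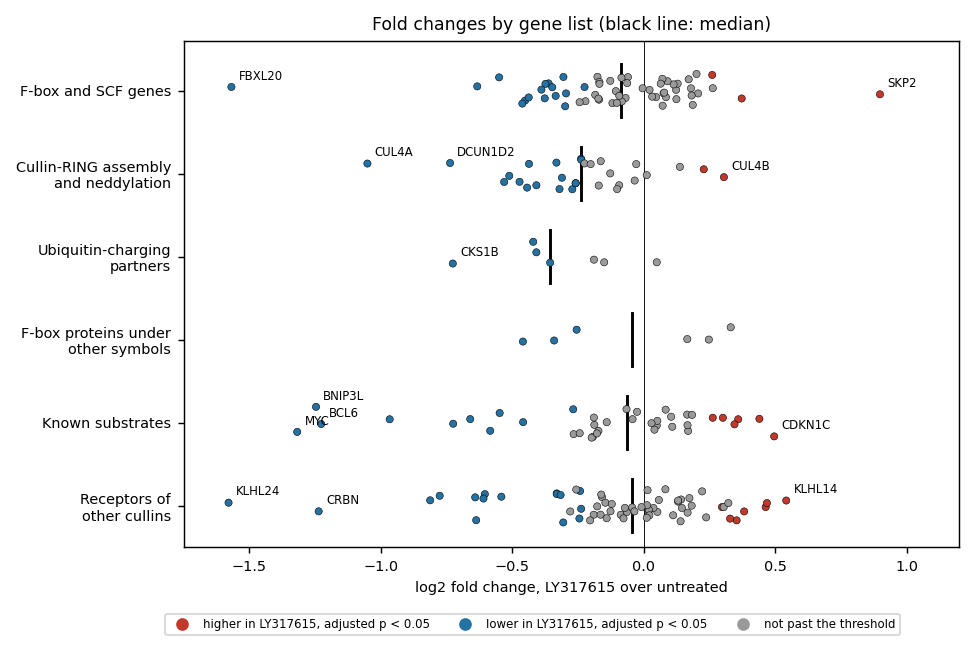
Log2 fold change of LY317615 over untreated cells for the F-box and SCF genes and 5 lists of related genes; each point is a gene, black lines are medians and colours give the call at an adjusted p of 0.05. Medians run from -0.36 for the ubiquitin-charging partners to -0.04 for the receptors of other cullins.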

How the data were processed

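RNA of 6 samples was measured on Affymetrix Gene 1.0 ST arrays. The deposited table holds linear intensities for each probe set. The tools named, per the submitters' processing notes, are GCOS 1.4, Affymetrix Expression Console and RMA; their order is not stated. Since RMA output is log2, it must have been turned back to linear by a step the notes do not name. Log2 was taken without a constant and no further scaling was applied.

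Of 33297 probe sets, 19460 had 1 gene symbol, 1754 several and 12083 none in the platform annotation. The brightest probe set of each gene was kept, which left 18417 genes. These were fitted with limma 3.58.1 in R 4.3.3 (two-sided, no trend in eBayes). P-values were adjusted by Benjamini-Hochberg across the 18417 genes, and calls needed an adjusted p under 0.05. Errors of changes are standard errors of that fit, and errors of means are SDs over 3 arrays. Counts and plots were made in Python 3.11.15 with pandas 2.3.3 and matplotlib 3.10.9. The code was tested on simulated data. No genome build is named for the array values, so coordinates are given for RefSeq promoters only.

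The members and gene lists were chosen with earlier results of these data known. Every member could be named by rule, with values on each array for members past the threshold and for SKP1, CUL1, SKP2, CCNF, FBXW7, FBXW11, FBXO11, FBXL5, FBXO5 and FBXO7; FBXO10 was on that list but has no probe set of its own. Up to 6 genes of each related list past the threshold were named by smallest adjusted p, together with the other called substrates and some, not all, partners of a described receptor. CUL4B, PRKCD and the counts within a list by complex or symbol were chosen after the values were seen. Alternatives were another scaling, variance prior, filter on dim genes, probe set rule, array weights, threshold, replicate block and each array left out. Markers of other cell types were summed as intensities.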

Additional observations from a re-analysis of the deposited data

How the results depend on the processing

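Of the 19 called members, 8 kept their call and direction under all 14 alternatives tried (SKP2, FBXL20, FBXO33, FBXO8, FBXO25, FBXO31, FBXL18 and FBXL7), 11 lost the call under 1 or more, and 0 changed sign past the threshold; 6 uncalled members gained a call under 1 or more. At an adjusted p of 0.01, 12 members were called, 2 higher and 10 lower, as were 37 genes of the related lists and 3586 of all genes (967 higher, 2619 lower). Members called higher numbered 5 when the variance prior followed intensity, 7 after cyclic loess and 5 without the dimmest 30% of genes, which left out 9 members; members called lower numbered 9 after cyclic loess. The members' median was -0.14 with equal array medians and -0.019 under cyclic loess. Leaving out each array in turn gave 15 to 18 called members (2 to 4 higher, 13 to 14 lower), a members' median of -0.13 to -0.065, 42 to 58 calls in the related lists (fewest without untreated replicate 2, against 64), 4609 to 6153 called genes and 1566 to 2538 genes called higher (fewest without untreated replicates 2 and 3, at 1566 and 1715). With the replicate number as a block, 17 members (3 higher, 14 lower) and 6548 genes were called; FBXW11 and FBXO36 lost their calls. Deviations from the group means correlated across genes at -0.017, 0.093 and 0.066 for samples of the same number. LY317615 replicates 2 and 3 correlated best with the untreated array of their own number. LY317615 replicate 1 correlated best with untreated replicate 2 (0.037). Since replicate 1 did not match, the numbers were not taken to pair the samples. The causes of these shifts were not tested.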

Other observations

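Some F-box probe sets could not be read as a single gene, and their values are given without a comparison of genes. The probe set shared by FBXO10, a receptor of BCL2, and the mitochondrial import gene TOMM5 read 9.63, 9.59 and 9.54 on LY317615 arrays and 9.54, 9.66 and 9.66 on untreated arrays, with overlapping groups. The probe set shared by FBXL6 and CATSPERQ read 6.07, 6.13 and 6.35 on LY317615 arrays and 5.96, 5.83 and 5.92 on untreated arrays, and these groups did not overlap (adjusted p = 0.0765 in the limma fit of all probe sets). FBXL19-AS1, the antisense RNA of FBXL19, read 6.38, 6.22 and 5.96 on LY317615 arrays and 6.49, 6.18 and 6.10 on untreated arrays. FBXW10 is read only by 4 probe sets shared with FBXW10B, and the groups overlapped in each.

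Among the LY317615 arrays, replicate 3 was the lowest in 26 of 59 members and the highest in 15, replicate 1 the lowest in 12 and the highest in 24, and replicate 2 the lowest in 21 and the highest in 20.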
